A study of Macaca mulatta with 51 samples.

Results

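The genes described here are SLC38A3, its relatives in the SLC38 family of amino acid transporters, the neutral amino acid exchanger SLC7A10 and the glutamine synthetase gene GLUL, in AT and SM of rhesus macaques treated with FGF21. They were chosen by symbol from a list of 10 members, of which 9 were among the 16033 genes of the count table; SLC38A7 was not analysed here. SLC38A3 was placed on the list because it was low in AT after treatment, so its AT values, and what rests on them, are given as a description with no test. The tests concern the 8 other members in AT and between tissues, and all 9 in SM.

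Biopsies of subcutaneous abdominal AT and of gastrocnemius SM came from obese, non-diabetic rhesus macaques of 11 to 22 years, males and ovariectomized females, all kept on a high-fat diet throughout. Each animal was sampled before treatment (pre-treatment), after 12 weeks of daily subcutaneous injection of native human FGF21 at increasing doses (post-treatment) and after 16 further weeks without injection (washout). All animals received FGF21, 1 of them held at a lower dose, and none was left untreated, so that time, weight loss and treatment cannot be told apart. Counts were read for 48 of 51 labelled libraries, which gave 10 pre-treatment, 9 post-treatment and 8 washout libraries of AT from 10 animals, and 6, 8 and 7 libraries of SM from 8 animals.

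SLC38 proteins carry glutamine and other small neutral amino acids across membranes, most of them with sodium. SLC38A3 (SNAT3) moves glutamine, histidine and asparagine with sodium and against protons, can run in either direction, and is best known from liver, kidney and astrocytes. SLC38A1, SLC38A2 and SLC38A4 (SNAT1, SNAT2 and SNAT4) take up alanine, serine, glutamine and similar amino acids, and SLC38A2 is known to be induced when amino acids are short. AT releases glutamine made by glutamine synthetase, and SLC7A10 (Asc-1), which exchanges small neutral amino acids such as serine and glycine, is a surface protein of white adipocytes.

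The libraries held 14455195 to 23940980 counts each, with a median of 18578869. Levels are given as CPM, the counts of a gene scaled to a common library total after TMM normalization within the tissue. Counting error matters most for members near or below 1 CPM, which are SLC38A4 in AT, SLC7A10 in SM and SLC38A3 in AT post-treatment. The tissue labels were checked against markers. Of 12 adipocyte markers, 8 were in the table (PLIN4, CIDEC, LIPE and CIDEA were not), and their summed level ranged from 10357 to 36159 CPM in AT and from 346 to 1943 CPM in SM. Of 12 myofibre markers, 11 were in the table, at a sum of 67.1 to 197 CPM in AT and of 71594 to 313417 CPM in SM. Both tissues therefore carried the markers of their labels. In bulk biopsies, a change in the share of a cell type and a change in RNA per cell cannot be told apart.

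SLC38A3 was detected in every library. In AT it was lower post-treatment than pre-treatment in every animal with both libraries, and at washout it was near or above its starting level, while the SM values of the 3 time points overlapped. In pre-treatment AT, it stood at 2.24 CPM in animal 19832, 7.41 in 20456, 7.58 in 26292, 8.24 in 21189, 9.23 in 21866, 11.9 in 24849, 13.3 in 23004, 19.5 in 20261, 20.5 in 20275 and 21.8 in 22130, a mean of 12.2 ± 6.53 (SD, n = 10). Post-treatment it stood at 0.192 CPM in animal 22130, 0.201 in 20275, 0.474 in 21189, 0.691 in 21866, 0.994 in 24849, 1.03 in 26292, 2.65 in 20456, 2.93 in 23004 and 5.23 in 20261, a mean of 1.60 ± 1.69 (SD, n = 9). The 2 groups overlapped only through the pre-treatment library of animal 19832, for which no post-treatment AT library was read.

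At washout the AT level was 9.43 CPM in animal 26292, 9.64 in 21189, 9.96 in 23004, 14.2 in 21866, 27.2 in 24849, 29.3 in 20275, 30.2 in 20261 and 40.5 in 22130, a mean of 21.3 ± 11.96 (SD, n = 8). All washout values lay above all post-treatment values, and 7 of 8 animals were above their own pre-treatment level. These levels rest on 46 to 408 counts per library pre-treatment, 4 to 101 post-treatment and 178 to 737 at washout.

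**Figure D1:**
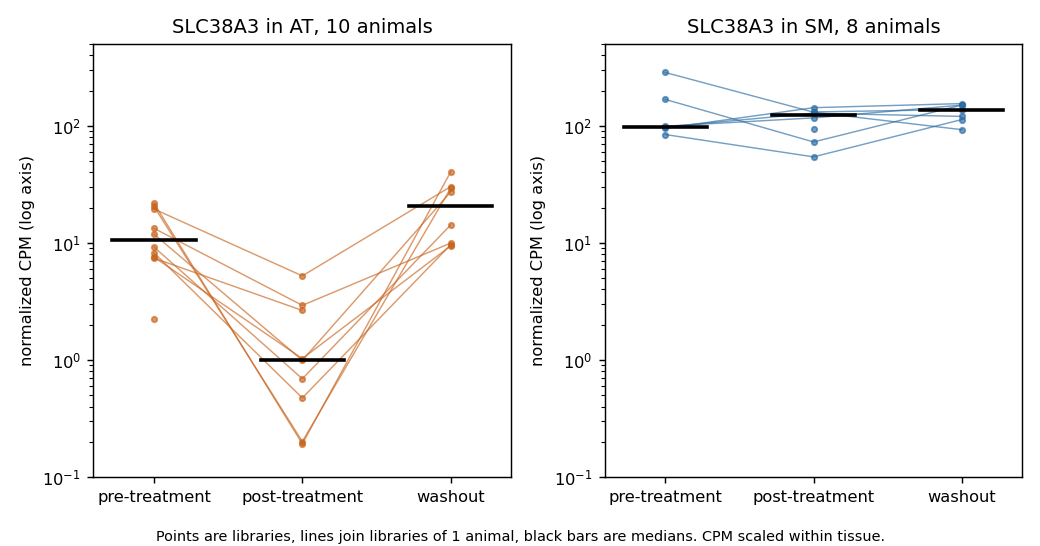
SLC38A3 in normalized CPM on a log axis at pre-treatment, post-treatment and washout, in AT (left, 10 animals) and SM (right, 8 animals). Points are libraries, lines join libraries of 1 animal and black bars are group medians; the AT medians are 10.6, 0.994 and 20.7 CPM and the SM medians are 98.5, 123 and 138 CPM.

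Within animals, the post-treatment level in AT was 0.881% to 35.7% of the pre-treatment level, with a median of 8.37%. The lowest shares belonged to animals 22130 and 20275, and the highest to animals 20456 and 20261. In the fit of time point and animal, the log2 fold change was -3.13 ± 0.42 (SE) post-treatment compared to pre-treatment, the 19th lowest of 13367 genes, and 3.76 ± 0.44 at washout compared to post-treatment. Washout compared to pre-treatment gave 0.63 ± 0.36, which was not tested either. Leaving out each animal in turn kept the post-treatment value between -3.42 and -2.87. Because SLC38A3 was chosen for this fall, its rank and this range are a description and add no evidence for it. Libraries were grouped here into a first, middle and last series by the leading digits of their identifiers. The labels give the identifiers but not these series. Post-treatment, the mean SLC38A3 change in AT, in log2 CPM, was -3.60 in the 6 animals with both libraries in the last series. It was -1.80 in the 2 animals of the middle series and -6.21 in animal 22130, whose libraries came from 2 series.

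The AT libraries also differed in cell markers. The 8 adipocyte markers summed to 17749 to 36159 CPM pre-treatment (median 20507), 10357 to 31868 post-treatment (median 18322.5) and 11642 to 32669 at washout (median 17397), with none at 0, and were lower post-treatment in 7 of 9 animals. All 16 macrophage markers were in the table and above 0 in each group; they summed to 937 to 3835 CPM pre-treatment (median 2269), 1744 to 10411 post-treatment (median 4526) and 660 to 4022 at washout (median 1157). The macrophage sum was higher post-treatment in 6 of 9 animals, and 6 of the 16 markers rose in that test, where 6.98% of all genes did. The sum was lower at washout in 7 of 8 animals, and all 16 markers fell in the test of washout compared to post-treatment. In that comparison 17.6% of all genes rose and 17.8% fell. Of 9 tested endothelial markers, 5 rose in it, and of 12 adipose progenitor markers, 4 fell. Post-treatment, 3 of 8 adipocyte markers fell (LEP, PLIN1 and TUSC5), where 8.49% of all genes did. Erythroid markers summed to medians of 2677, 852 and 5109 CPM at the 3 time points, with HBA1 and HBA2 at 0, and 3 of 5 tested rose from post-treatment to washout. Animals 22130 and 20275, with the lowest SLC38A3 levels, had the lowest adipocyte sums post-treatment (10357 and 11740 CPM), against 31345 and 29713 CPM pre-treatment, and animal 20275 had the highest macrophage sum (10411 CPM). In animal 21866, SLC38A3 went from 9.23 to 0.691 CPM while the adipocyte sum was 19099 CPM pre-treatment and 22348 CPM post-treatment and the macrophage sum 1846 and 1744 CPM. The part of the cell markers in the member values was not tested.

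In SM, SLC38A3 was not DE in any comparison. Pre-treatment values ranged from 84.3 to 286 CPM with a median of 98.5 (n = 6), post-treatment values from 54.3 to 143 with a median of 123 (n = 8), and washout values from 92.7 to 155 with a median of 138 (n = 7). The groups overlapped, and post-treatment levels were lower than pre-treatment in 3 of 6 animals and higher in the other 3. The log2 fold change was -0.30 post-treatment compared to pre-treatment (95% interval -0.87 to 0.27, adjusted p = 1), 0.31 at washout compared to post-treatment (-0.23 to 0.84, adjusted p = 0.55) and 0.01 at washout compared to pre-treatment (-0.56 to 0.58, adjusted p = 0.992). The highest pre-treatment SM values, 286 CPM in animal 19832 and 168 CPM in animal 20275, were followed by 131 and 72.8 CPM post-treatment. Set beside each other without a test, the SM and AT changes post-treatment differed by 2.98 ± 0.59 (log2, SE).

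Pre-treatment, 7 of the 8 other members differed between AT and SM, 4 higher in AT and 3 lower, where 77.8% of the 12322 genes tested in both tissues did (41.2% higher and 36.6% lower). With both tissues scaled together, SLC38A3 averaged 9.59 ± 5.14 CPM in AT (SD, n = 10) and 186 ± 99.8 in SM (SD, n = 6), 19.4 times as much, a fitted difference of -4.36 ± 0.43 (log2 AT minus SM, SE) that is given with no test. SLC38A4 was at 0.854 ± 0.441 CPM in AT and 66.6 ± 33.7 in SM (-6.12 ± 0.36, adjusted p = 2.63e-17), GLUL at 331 ± 72.5 and 1179 ± 268 (-1.81 ± 0.24, adjusted p = 2.58e-08) and SLC38A2 at 77.3 ± 15.0 and 174 ± 67.2 (-1.10 ± 0.17, adjusted p = 4.28e-07). SLC7A10 was the reverse, at 52.9 ± 9.20 CPM in AT and 0.994 ± 1.81 in SM (6.42 ± 0.67, adjusted p = 9.8e-11), where it rested on 1 to 69 counts a library. SLC38A10 was 2.64 ± 0.23 higher in AT, SLC38A6 1.68 ± 0.38 and SLC38A1 1.19 ± 0.30 (adjusted p = 2.05e-12, 0.000139 and 0.000503). SLC38A9 was not called (-0.23, 95% interval -0.55 to 0.09, adjusted p = 0.181).

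These tissue differences depend on the scaling. With library size alone the median gene was 0.80 (log2) higher in AT, against 0.09 with TMM, and the share of called genes that were higher in AT went from 53% to 77.4%. The 7 members called kept their direction, SLC38A2 with a difference of -0.40, and SLC38A9 came out higher in AT (0.48).

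Post-treatment compared to pre-treatment, 2 of the 8 other members changed in AT, SLC38A4 upward and SLC38A10 downward, where 6.98% of 13367 genes were higher and 8.49% lower. The SLC38A4 level was 0.166 to 2.11 CPM pre-treatment (median 1.05, n = 10), 1.15 to 3.57 post-treatment (median 1.78, n = 9) and 0.301 to 1.62 at washout (median 0.914, n = 8). It rose by 1.09 ± 0.31 (log2, SE, adjusted p = 0.0254), higher in 8 of 9 animals, all but 22130, and fell by 1.17 ± 0.32 at washout compared to post-treatment (adjusted p = 0.00856), lower in 7 of 8. The groups overlapped, and the counts were only 3 to 71 per library. The rise was not called without animal 20275 (adjusted p = 0.0722), without animal 21866 (0.0618) or without the pre-treatment library of animal 20275 (0.058); over 20 alternatives the adjusted p ran from 0.00737 to 0.0722.

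SLC38A10, a family member found mainly on internal membranes, lay between 163 and 357 CPM in AT pre-treatment, with a median of 255. Its post-treatment values were 111 to 310 CPM (median 160) and its washout values 153 to 319 CPM (median 179). SLC38A10 fell by 0.51 ± 0.12 post-treatment (log2, SE, adjusted p = 0.00933), lower in 9 of 9 animals, and was still lower at washout than pre-treatment (-0.38 ± 0.12, adjusted p = 0.0314), lower in 7 of 8. Animal 23004 was the highest at each time point, and the groups overlapped. Among the 6 animals with both libraries in the last series of library identifiers the mean fall in log2 CPM was -0.57, and in the 2 of the middle series -0.23. The post-treatment call was lost when the animal was left out of the model (adjusted p = 0.0833), and the washout call was lost without 20261, 20275, 21189, 22130 or 26292 in turn (adjusted p 0.0672 to 0.098) and with library size alone (0.102). Over 21 alternatives the adjusted p ran from 0.000441 to 0.0833 for the former and from 0.00569 to 0.12 for the latter.

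SLC38A6, whose transport role is less well defined, and SLC7A10 came close to the threshold post-treatment. SLC38A6 in AT was 15.1 to 52.2 CPM pre-treatment (median 30.8), 34.8 to 150 post-treatment (median 49.4) and 11.4 to 64.6 at washout (median 24.5). The difference post-treatment was 0.92 ± 0.32 (log2, SE, adjusted p = 0.0559), higher in 7 of 9 animals; at washout SLC38A6 was lower than post-treatment by -1.14 ± 0.33 (adjusted p = 0.0118), in 6 of 8 animals. The post-treatment value of animal 20275 (150 CPM) stood well above the next (73.7 CPM). All 6 animals with both libraries in the last identifier series were higher post-treatment, with a mean change of 1.04, and both animals of the middle series were lower, with a mean of -0.29.

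SLC7A10 in AT was 53.6 to 86.4 CPM pre-treatment (median 62.7), 18.5 to 71.6 post-treatment (median 45.8) and 39.6 to 114 at washout (median 54.5). It differed by -0.61 ± 0.22 post-treatment (log2, SE, adjusted p = 0.0624), lower in 8 of 9 animals, with animal 20275 lowest. DESeq2 called it (adjusted p = 0.0257), as it did SLC38A6 (0.0147). Over 21 alternatives the adjusted p ran from 0.0257 to 0.145 for SLC7A10 and from 0.0147 to 0.17 for SLC38A6.

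SLC38A1 and SLC38A9 were both called at washout against either earlier time point in AT. SLC38A1 ranged from 62.8 to 171 CPM pre-treatment (median 94.7). The post-treatment range was 87.4 to 277 CPM (median 125) and the washout range 38.0 to 107 CPM (median 52.0). SLC38A1 was 0.41 ± 0.22 higher post-treatment, which was not called (adjusted p = 0.197), fell by 1.19 ± 0.24 from post-treatment to washout (adjusted p = 0.001) in 7 of 8 animals, and was lower at washout than pre-treatment by -0.78 ± 0.24 (adjusted p = 0.0228), also in 7 of 8. In 6 of 8 animals the washout level was between 38.0 and 56.8 CPM, below every pre-treatment value; animals 23004 and 26292, at 105 and 107 CPM, were not. The washout call against pre-treatment was lost without animal 21866 (adjusted p = 0.0681) or 24849 (0.0628) and with library size alone (0.0508), over a range of 0.000475 to 0.0681 in 21 alternatives.

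SLC38A9, a lysosomal membrane protein that senses arginine for the mTORC1 kinase, was 14.0 to 22.9 CPM pre-treatment (median 17.8), 15.3 to 32.0 post-treatment (median 23.2) and 23.7 to 33.1 at washout (median 26.8). Its washout values did not overlap its pre-treatment values, and it rose by 0.59 ± 0.12 (log2, SE, adjusted p = 0.00169) in 8 of 8 animals. The rise from post-treatment to washout, 0.31 ± 0.12, was called narrowly (adjusted p = 0.0487) and was lost in each of 5 alternative settings and without any 1 of 7 animals, over a range of adjusted p from 0.00201 to 0.134. With the 4 animals whose pre-treatment and washout libraries came from different identifier series, the mean change from pre-treatment was 0.69, against 0.52 in the 3 animals within the last series.

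SLC38A2 and GLUL did not pass the edgeR test in AT. SLC38A2 had medians of 106, 108 and 101 CPM at the 3 time points, and its log2 fold change post-treatment was 0.29 (95% interval -0.01 to 0.58, adjusted p = 0.153). The GLUL level was 273 to 511 CPM pre-treatment, 316 to 936 post-treatment and 285 to 480 at washout, with medians of 447, 436 and 395. The GLUL log2 fold change post-treatment was 0.28 (-0.03 to 0.59, adjusted p = 0.188), and at washout compared to post-treatment -0.38 ± 0.16 (adjusted p = 0.0619), lower in 7 of 8 animals. The latter was called by DESeq2 (adjusted p = 0.0495) and without animal 21866 (0.0153), over a range of 0.0153 to 0.183 in 21 alternatives. Animals 21189, 26292 and 20456 reached 684 to 936 CPM post-treatment while the other 6 stayed between 316 and 515 CPM.

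In all, 4 of 8 members were called at washout compared to post-treatment in AT (3 lower and 1 higher, where 17.8% and 17.6% of all genes were) and 3 of 8 at washout compared to pre-treatment (SLC38A1 and SLC38A10 lower, SLC38A9 higher, where 7.96% and 12.5% of all genes were). With library size alone the share of called genes that were higher went from 49.7% to 63% in the former comparison and from 61.1% to 79.7% in the latter. The median log2 fold change over all genes was 0.03, 0.00 and -0.02 in the 3 AT comparisons.

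**Figure D2:**
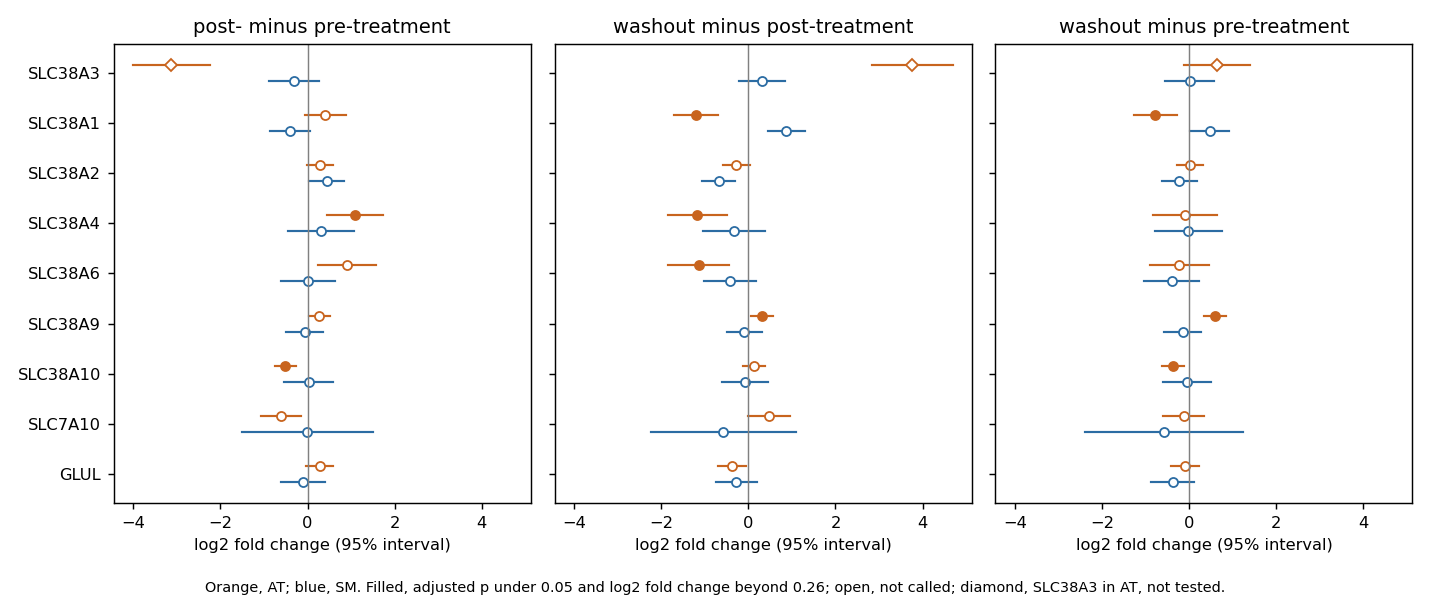
Log2 fold change with its 95% interval for the 9 members in AT (orange) and SM (blue), for post-treatment minus pre-treatment, washout minus post-treatment and washout minus pre-treatment. Filled circles passed the adjusted p of 0.05 and a log2 fold change of 0.26, and open circles did not. Diamonds mark SLC38A3 in AT, which was chosen for its low level there and was not tested. Its values of -3.13 and 3.76 and their intervals are a description, and no SM value is filled.

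No member was DE in SM. Post-treatment compared to pre-treatment, edgeR called 0 of 12617 genes (0%), as did DESeq2 and voomWithQualityWeights, with 410 genes at an unadjusted p under 0.05 in edgeR, 1 of them a member (SLC38A2, 0.45 ± 0.19, unadjusted p = 0.0317, adjusted p = 1). At washout edgeR called 0.19% of genes compared to post-treatment (0.182% higher and 0.00793% lower) and 0.0634% compared to pre-treatment, and 0 of 9 members in either; 2 members in the former comparison and 1 in the latter had an unadjusted p under 0.05, and DESeq2 called 2 members in the former and 0 in the latter. SLC38A1 in SM had a median of 18.9 CPM post-treatment (11.5 to 39.5 CPM) and of 32.7 CPM at washout (19.4 to 83.2 CPM). This gene was higher at washout in 7 of 7 animals, by 0.87 ± 0.20 (log2, SE, adjusted p = 0.0977). SLC38A2 ranged from 136 to 227 CPM post-treatment and from 81.2 to 133 at washout, the latter all below the former, and was lower in 7 of 7 animals by -0.68 ± 0.18 (adjusted p = 0.12).

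The SM libraries carried a split by identifier series that touches several members. Post-treatment, 5 SM libraries belonged to the first series and 3 to the last, and SLC38A6 stood at 2.78 to 5.13 CPM in the former and at 9.80, 11.8 and 12.9 CPM in the latter. SLC38A9 divided in the same way, at 6.94 to 11.03 against 15.8 to 17.1 CPM, and GLUL in the opposite way, at 644 to 1615 against 254 to 519 CPM. The same 3 libraries of the last series had the lowest myofibre sums of the 8, at 71594, 125745 and 135815 CPM against 148725 to 313417 CPM. They also had the highest macrophage sums, at 203 to 282 CPM against 25.8 to 188 CPM, and progenitor sums of 5696 to 17877 CPM against 343 to 7862 CPM. The part of these markers in the member values was not tested. Whether the series stand for batches of RNA isolation or sequencing was not given in the sources used here. With the series as a covariate, SLC38A1 (0.85, adjusted p = 0.0458), SLC38A2 (-0.90, adjusted p = 0.0117) and SLC38A6 (-0.95, adjusted p = 0.0265) were called at washout compared to post-treatment, as were 2650 of all genes. Over 18 alternatives the adjusted p ran from 0.00514 to 0.258 for SLC38A1, from 0.0117 to 0.284 for SLC38A2 and from 0.0265 to 0.893 for SLC38A6. Of the 7 animals with both libraries, 2 had both in the last series and 5 in different series, with mean SLC38A6 changes of -1.27 and 0.01.

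SLC7A10 stayed near the limit of counting in SM, at 0.0409 to 3.39 CPM over the 3 time points. Animal 24849 held the highest value pre-treatment (3.39 CPM, 69 counts) and post-treatment (2.84 CPM, 67 counts), and had 3 counts at washout.

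**Figure D3:**
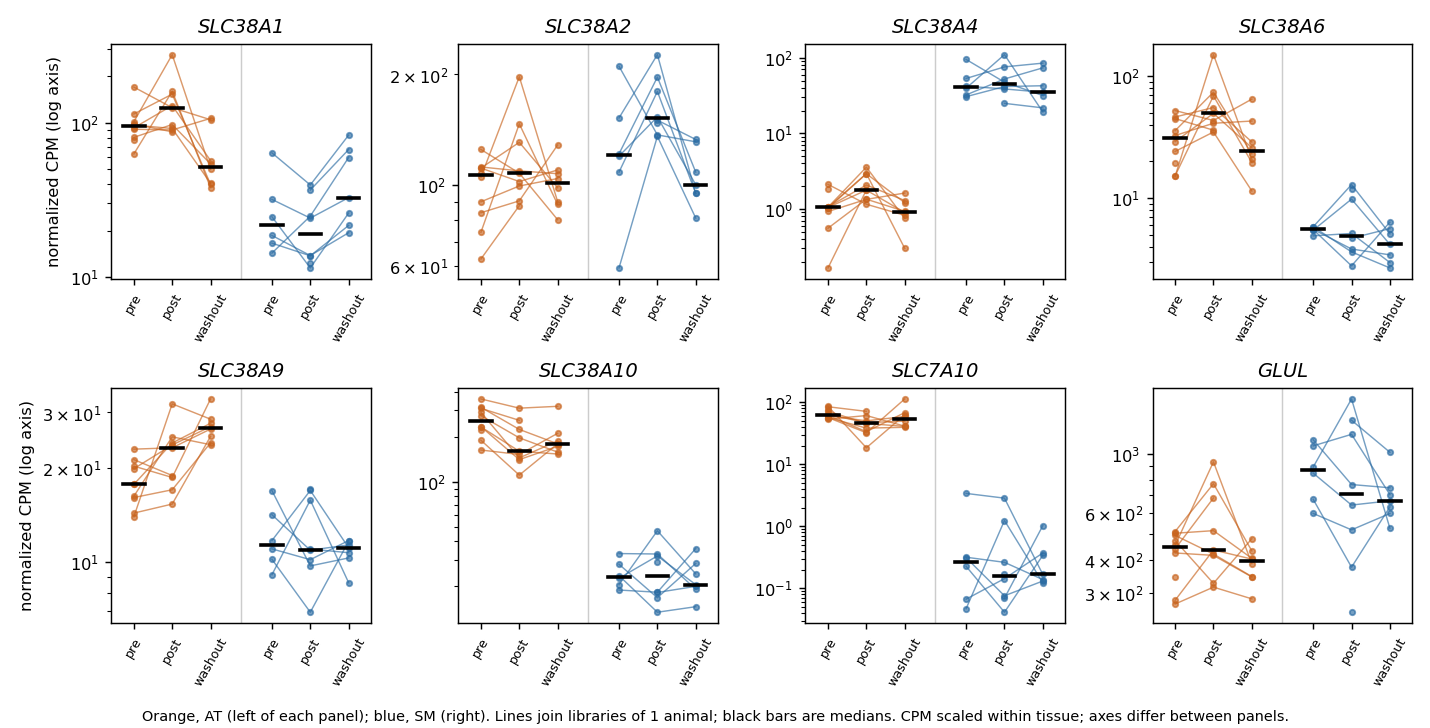
Normalized CPM, on log axes that differ between panels, of the 8 other members at the 3 time points in AT (orange, left of each panel) and SM (blue, right). Lines join libraries of 1 animal and black bars are medians; SLC38A9 in AT has medians of 17.8, 23.2 and 26.8 CPM, SLC38A1 in AT drops to 52.0 CPM at washout, and SLC7A10 in SM stays at or below 3.39 CPM.

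The change at washout differed between the tissues for SLC38A1 and SLC38A9. The SLC38A1 change in SM minus that in AT was 2.07 ± 0.33 at washout compared to post-treatment (log2, SE, adjusted p = 4.11e-05) and 1.31 ± 0.34 compared to pre-treatment (adjusted p = 0.00614). SLC38A9 differed by -0.68 ± 0.22 at washout compared to pre-treatment (adjusted p = 0.0313), a call lost without animal 20261, 20275, 22130 or 23004 (adjusted p 0.0509 to 0.153). These were 1 and 2 of 8 members, where 22.7% of 12322 genes differed in the former comparison (10.8% higher in SM) and 17.5% in the latter (8.38% higher and 9.13% lower). Post-treatment compared to pre-treatment, 0 of 8 were called by edgeR or by voomWithQualityWeights, where 0.0487% of genes were by edgeR, and 2 members had an unadjusted p under 0.05: SLC38A1 (-0.76 ± 0.33, adjusted p = 0.397) and SLC38A10 (0.59 ± 0.26, adjusted p = 0.415).

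SLC38A1, SLC38A2 and SLC38A4 are neighbours on 1 chromosome with 0 protein-coding genes between them in the RefSeq annotation. In AT post-treatment SLC38A4 rose by 1.09 while SLC38A1 and SLC38A2 gave 0.41 and 0.29, and at washout compared to post-treatment SLC38A1 and SLC38A4 fell by 1.19 and 1.17 while SLC38A2 gave -0.27; differences between the 3 genes were not tested. In SM at washout SLC38A1 and SLC38A2 lay on opposite sides of 0, at 0.87 and -0.68.

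Across the 9 animals with both AT libraries, the post-treatment changes of SLC38A1 and SLC38A6 ran opposite to that of SLC38A3. Because SLC38A3 was chosen for this change, the correlations of its change with those of the 8 other members are a description. SLC38A1 had Pearson r = -0.90 and Spearman rho = -0.78, and SLC38A6 had r = -0.89 and rho = -0.80. Animals 22130 and 20275, whose SLC38A3 changes were -6.21 and -6.08 on the log2 CPM scale, had the largest SLC38A1 changes of the 9, 1.35 and 1.44, and the largest SLC38A6 changes, 2.17 and 3.30. Without these 2 animals r was -0.54 for SLC38A1 and -0.61 for SLC38A6 (n = 7), so both relations rest in part on those animals. Within the 6 animals of the last identifier series, which include animal 20275, r was -0.83 and -0.84.

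The other members gave r = -0.78 for SLC38A9, -0.73 for SLC38A2, 0.71 for SLC7A10, 0.71 for SLC38A10, 0.47 for SLC38A4 and -0.01 for GLUL. Spearman's coefficient was -0.78 for SLC38A9, -0.53 for SLC38A2, 0.72 for SLC7A10, 0.57 for SLC38A10, 0.25 for SLC38A4 and 0.05 for GLUL. Without the same 2 animals these r values were -0.60, 0.22, 0.29, 0.31, 0.38 and 0.13 for SLC38A9, SLC38A2, SLC7A10, SLC38A10, SLC38A4 and GLUL. Within the 6 animals of the last identifier series they were -0.86, -0.87, 0.86, 0.60, -0.62 and -0.25 in the same order, so that SLC38A4 changed sign.

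**Figure D4:**
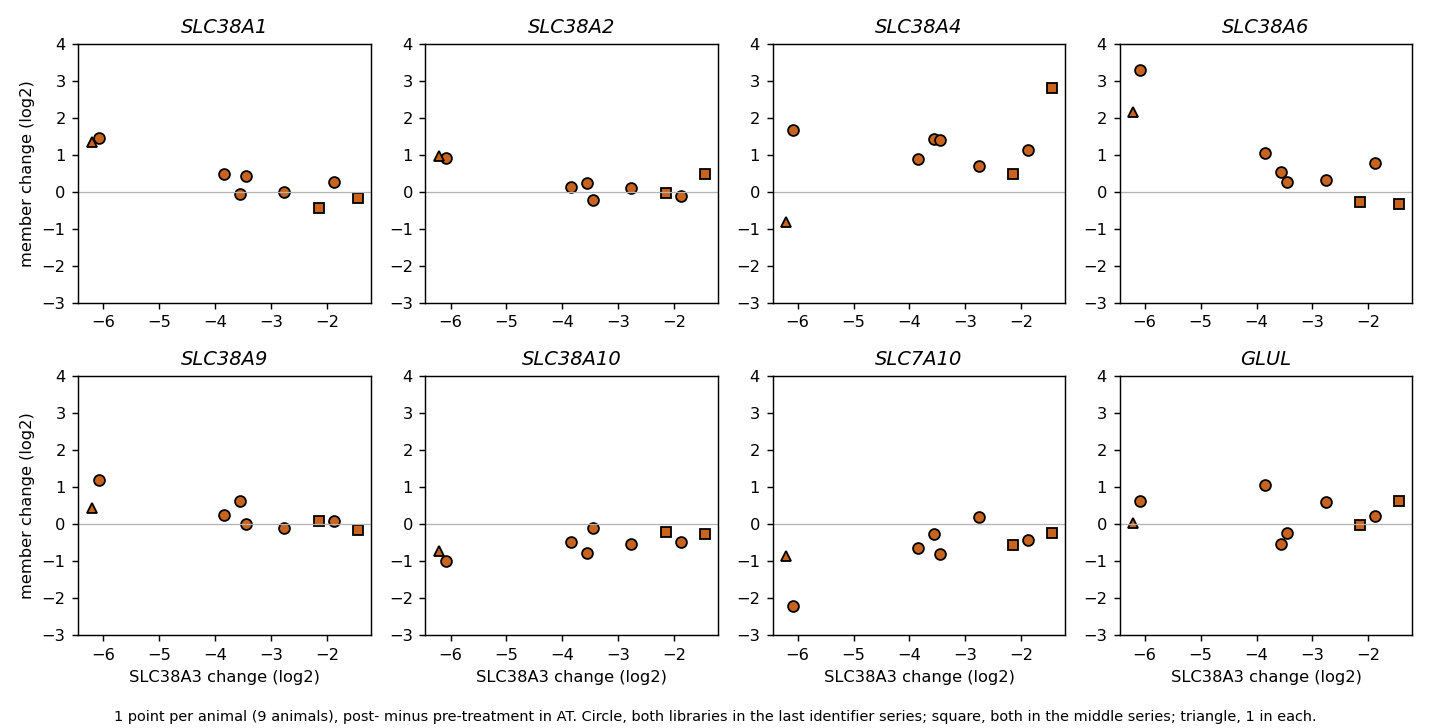
Post-treatment minus pre-treatment change in AT, in log2 CPM, of each of 8 members (vertical axis) against that of SLC38A3 (horizontal axis), 1 point per animal for 9 animals. Circles have both libraries in the last identifier series, squares both in the middle series and the triangle 1 in each; animals 22130 and 20275, at SLC38A3 changes of -6.21 and -6.08, stand apart at the left of each panel.

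Over the 27 AT libraries, with the mean of each animal removed, the genes whose log2 CPM was most like that of SLC38A3 among 12139 genes averaging 1 CPM or more were CKMT1B (r = 0.97), RBPMS2 (0.97), AKR1C1 (0.96), LEP (0.96) and MICALL1 (0.96). The points share 10 animals and 3 time points, so the values are a description. LEP, the gene of the adipocyte hormone leptin and 1 of the adipocyte markers above, averaged 2849 ± 796 CPM pre-treatment, 915 ± 724 post-treatment and 2569 ± 850 at washout. CKMT1B, a mitochondrial creatine kinase, averaged 12.2 ± 4.19, 3.79 ± 3.22 and 13.7 ± 4.39 CPM, and AKR1C1, an aldo-keto reductase that acts on steroids, 1606 ± 336, 656 ± 350 and 1616 ± 510 CPM; counts of both are uncertain because near-identical copies can share their reads. RBPMS2, an RNA-binding protein, averaged 93.3, 31.8 and 107 CPM and MICALL1, an endocytic recycling protein, 69.1, 45.1 and 71.6 CPM. FZD7 (r = -0.94) and BACH1 (-0.94) were among the genes least like SLC38A3. Of the members, SLC7A10 came closest (r = 0.73, rank 875) and SLC38A6 lay farthest (-0.85), with SLC38A10 at 0.56, SLC38A9 at -0.09, GLUL at -0.45, SLC38A4 at -0.64, SLC38A2 at -0.67 and SLC38A1 at -0.79.

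Of the 3 remaining SLC38 genes, SLC38A11 was higher in AT at washout, with means of 3.85 ± 1.17 CPM pre-treatment, 3.61 ± 1.90 post-treatment and 8.15 ± 2.85 at washout (log2 fold change 1.15 ± 0.26 compared to post-treatment, adjusted p = 0.00206, and 1.06 ± 0.25 compared to pre-treatment, adjusted p = 0.00486). SLC38A5 and SLC38A8 were not called in any comparison over time.

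Amino acid transporters of the plasma membrane outside the family were counted from a list of 31, of which 24 were tested in AT. Post-treatment 2 rose and 3 fell (20.8% called, against 15.5% of all genes; list median 0.06). SLC7A8, the light chain of a large neutral amino acid exchanger, rose by 1.14 ± 0.27 (log2, SE, adjusted p = 0.0125), from 28.8 ± 9.67 to 67.6 ± 37.7 CPM, and SLC7A7, which exchanges cationic for neutral amino acids, by 1.04 ± 0.31 (adjusted p = 0.0311). SLC7A11, the cystine and glutamate exchanger, changed by -1.54 ± 0.23 (adjusted p = 0.000859), from 3.02 ± 2.08 to 0.954 ± 0.474 CPM, and SLC36A2, a proton-coupled carrier of small amino acids, by -1.27 ± 0.40 (adjusted p = 0.0378).

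At washout compared to post-treatment, 4 of the 24 rose and 10 fell (58.3%, against 35.4% of all genes; list median -0.29). SLC7A8 went from 67.6 to 19.2 CPM (-1.81 ± 0.29, adjusted p = 0.000144), and SLC16A10 (-1.71 ± 0.47), which carries aromatic amino acids, and the glutamate transporter SLC1A2 (-1.68 ± 0.63) were also lower, with adjusted p of 0.00836 and 0.0427. SLC36A2 rose by 1.61 ± 0.41 (adjusted p = 0.00541). Compared to pre-treatment, 3 rose and 4 fell at washout (29.2%, against 20.5%; list median -0.18), among them SLC7A11 (-2.54 ± 0.27, adjusted p = 3.68e-06), at 0.455 ± 0.235 CPM, SLC1A1 (1.09 ± 0.23, adjusted p = 0.00203), SLC7A6 (0.95 ± 0.14, adjusted p = 5.82e-05) and SLC36A4 (-0.52 ± 0.13, adjusted p = 0.00704).

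**Figure D5:**
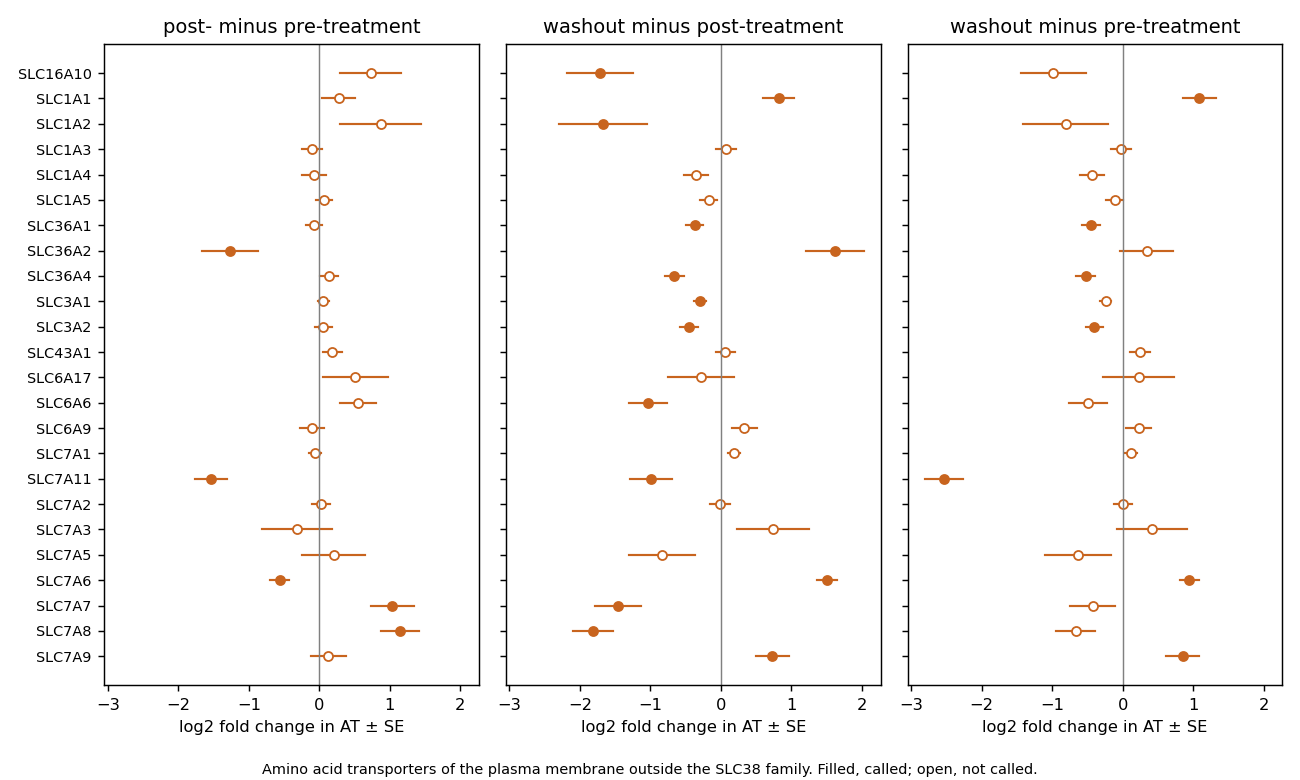
Log2 fold change ± SE in AT of 24 amino acid transporters of the plasma membrane outside the SLC38 family, for post-treatment minus pre-treatment, washout minus post-treatment and washout minus pre-treatment. Filled points were called and open points were not; 5, 14 and 7 points are filled in the 3 panels, and SLC7A8 lies at 1.14 in the first panel and at -1.81 in the second.

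Enzymes that make or use the carried amino acids were counted in the same way. Of 19 tested glutamine and glutamate enzymes in AT, 1 rose and 1 fell post-treatment (10.5%, against 15.5% of all genes). ASNS, asparagine synthetase, fell from 39.7 ± 8.08 to 24.2 ± 10.1 CPM (-0.81 ± 0.15, adjusted p = 0.00278). At washout compared to post-treatment 3 rose and 2 fell (26.3%, against 35.4%); ASNS was higher by 0.72 ± 0.15 (adjusted p = 0.00129), and GFPT1, which uses glutamine to make hexosamines, was lower by -0.99 ± 0.14 (adjusted p = 4.3e-05). Compared to pre-treatment 3 rose and 1 fell at washout (21.1%, against 20.5%), with GFPT1 at -1.24 ± 0.14 (adjusted p = 5.01e-06). In SM, GFPT1 was the only gene called from these lists, higher at washout by 1.12 ± 0.18 compared to post-treatment (adjusted p = 0.0338) and by 1.22 ± 0.20 compared to pre-treatment (adjusted p = 0.046).

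Of 7 serine and glycine enzymes tested in AT, 2 fell post-treatment, where 8.49% of all genes did: PSAT1 (-0.87 ± 0.25, adjusted p = 0.0261) and PHGDH (-0.66 ± 0.16, adjusted p = 0.0125), which catalyse early steps of serine synthesis. AMT, of the glycine cleavage system, rose at washout by 1.28 ± 0.16 compared to post-treatment (adjusted p = 1.51e-05), from 23.1 ± 5.85 to 56.2 ± 11.2 CPM, the 1 of 7 called, where 17.6% of all genes rose. It was 1 of 2 that rose compared to pre-treatment, where 12.5% of all genes did.

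Among 25 tested genes of lysosomal amino acid sensing by mTORC1, the pathway in which SLC38A9 acts, 1 rose and 2 fell post-treatment in AT (12%, against 15.5% of all genes): SESN3 (0.43 ± 0.13, adjusted p = 0.0364), SESN2 (-0.44 ± 0.11, adjusted p = 0.0147) and MTOR (-0.29 ± 0.10, adjusted p = 0.0463). At washout 5 rose and 7 fell compared to post-treatment (48%, against 35.4%), with TSC2, an inhibitor of the pathway, higher by 0.86 ± 0.12 (adjusted p = 4.3e-05) and FNIP2, a partner of folliculin, lower by -1.36 ± 0.22 (adjusted p = 0.000153). Compared to pre-treatment 3 rose and 2 fell (20%, against 20.5%), TSC2 by 0.63 ± 0.12 (adjusted p = 0.000694) and FNIP2 by -0.84 ± 0.22 (adjusted p = 0.008). In these lists the median log2 fold change lay between -0.10 and 0.05 for the glutamine and mTORC1 genes.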

How the data were processed

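RNA was measured by stranded mRNA sequencing in AT and SM biopsies. The authors used STAR and the MacaM genome, matched macaque genes to human symbols and deposited raw counts per gene; the counting tool was not given in the sources used here. Counts for 3 of the 51 labelled samples, all SM, were not used here. Of 16103 entries, 70 repeats of a gene were dropped.

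A gene was tested in a tissue where 10% or more of the libraries reached 0.5 CPM (13367 in AT, 12617 in SM, 12322 in both); all 9 members passed in both tissues. edgeR 4.0.16 in R 4.3.3 gave TMM factors and robust quasi-likelihood tests, with terms for the time point and the animal and a separate fit for each tissue; p-values were adjusted by Benjamini-Hochberg across every tested gene. DE, or called, means a log2 fold change beyond 0.26 at an adjusted p below 0.05. The difference between tissues was an interaction in 1 fit of both, and tissue levels were compared in a fit of group and animal. Log2 CPM used a prior count of 2. The pairing is that of the labels, whose numbers name the animals.

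The planned tests of the SLC38A3 change correlations and of its level between tissues were dropped, since its AT values chose it. Members and lists were chosen with earlier results of these data known. Text names all members, the 5 genes most and 3 least like SLC38A3, and up to 4 called genes per list and comparison among those averaging 1 CPM or more; some of these genes are not reported here. Total counts were 14455195 to 23940980 per library. How far counting error and the spread between animals each limit the members was not tested. On simulated data for AT post-treatment compared to pre-treatment over 13367 genes, 189 of 200 genes raised by 1.5 (log2) were called, with 7 unchanged genes. For SM over 12617 genes these counts were 170 and 6. Raised genes were drawn above a minimum mean count, and no differences between animals or identifier series were simulated. The simulation therefore does not give the power at smaller changes or lower counts. Alternatives were voomWithQualityWeights of limma 3.58.1, DESeq2 1.42.0, library size alone, other filters, no animal term, 2 time points, no fold limit, identifier series as a covariate, prior count 0.5, left-out animals and 1 left-out library; edgeR's earlier quasi-likelihood method was added after the data were seen. Correlations used SciPy 1.17.1 with NumPy 2.4.6, pandas 2.3.3 and matplotlib 3.10.9 in Python 3.11.15.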

Additional observations from a re-analysis of the deposited data

Results flagged for a closer look

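Single libraries stood far from the rest of their group in 10 of 54 groups of a member, tissue and time point, by Dixon's test at the 95% level. For normally distributed values, chance alone flags about 1 of 20 groups. CPM was used without a log scale and the groups share libraries, so that rate is only a guide here. All 10 flagged values were the highest of their group. In AT these were SLC38A1 at 277 CPM and SLC38A6 at 150 CPM in the post-treatment library of animal 20275, SLC38A1 at 171 CPM pre-treatment and SLC38A10 at 319 CPM at washout in animal 23004, and SLC7A10 at 114 CPM at washout in animal 24849. In SM they were SLC38A1 at 63.8 CPM pre-treatment in animal 20275, SLC38A4 at 95.1 CPM pre-treatment in animal 22130, and SLC7A10 at 3.39 and 2.84 CPM pre- and post-treatment in animal 24849 and at 1.02 CPM at washout in animal 20456. The same post-treatment AT library of animal 20275 had the highest summed macrophage markers of its group (10411 CPM); the part of these cells in its SLC38A1 and SLC38A6 levels was not tested.

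The change over time differed between SM and AT, by an interaction test over all genes in edgeR, for SLC38A1 at washout compared to post-treatment (log2 difference 2.07, adjusted p = 4.11e-05) and compared to pre-treatment (1.31, adjusted p = 0.00614), and for SLC38A9 at washout compared to pre-treatment (-0.68, adjusted p = 0.0313).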

How the results depend on the processing

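Of the single values recomputed, 1548 kept their side of the threshold or, where not tested, moved by less than their spread. A call was lost in 31 and gained in 19. With a call, 1 reversed its sign: SLC38A9 between tissues pre-treatment, at 0.48 with library size alone. Uncalled values that changed sign are counted among the 1548. SLC38A10 in SM post-treatment compared to pre-treatment, for example, ran from -0.16 to 0.19 as each animal was left out. The members called in AT post-treatment compared to pre-treatment numbered 4 with DESeq2 and 1 without the pre-treatment library of animal 20275 (all genes 1162). With at least 10 counts in every library 1 was called, as SLC38A4, with as few as 3 counts, was removed by that filter and not tested. At washout compared to pre-treatment 1 member was called with library size alone. For SM at washout compared to post-treatment, 24 genes were called as reported, 359 with DESeq2 (2 members), 2650 with the identifier series as a covariate (3 members), 224 with no animal in the model, 9 with voomWithQualityWeights, 4 with library size alone and 2 with only the 2 time points compared. Compared to pre-treatment, 8 were called as reported, 179 with DESeq2, 1355 with the series, 41 with no animal in the model, 17 with at least 10 counts in every library, and 3 with library size alone or edgeR's earlier method. Tissue differences numbered 6 genes post-treatment compared to pre-treatment, 0 with library size alone and 3 without the pairing, and 1716 at washout compared to post-treatment with voomWithQualityWeights. The cause of the other shifts was not tested.

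Without the pairing by animal (no block), SLC38A10 lost its post-treatment call (adjusted p = 0.0833), as it did its washout call (0.12), SLC38A9 lost its call at washout compared to post-treatment (0.0656) and SLC38A6 gained a post-treatment call (0.0404). SLC38A9 at washout compared to post-treatment was also lost without a filter (0.0585), with only the 2 time points (0.122), with the series (0.0612), with the earlier method (0.051) and without 20261, 20456, 21189, 22130, 23004, 24849 or 26292. SLC38A1 between SM post-treatment and washout gained a call without animal 22130 (0.0274).

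Leaving out each animal in turn, the members called numbered 1 to 3 in AT post-treatment compared to pre-treatment, 3 to 5 and 2 to 3 at washout, 7 to 8 between tissues, 0, 0 to 1 and 0 in SM, and 0, 1 to 2 and 1 to 2 for the tissue difference. All genes called ranged over 805 to 2214, 4008 to 4799 and 2133 to 2958 in AT, the first lowest without 22130 (805), 20275 (998) or 21189 (1316), and 0, 0 to 38 and 0 to 16 in SM, 0 to 10, 1901 to 2799 and 1429 to 2363 for the tissue difference and 9412 to 9614 between tissues. Members whose change correlated negatively with that of SLC38A3 numbered 4 to 5. Low counts matter most for SLC38A4 in AT, SLC7A10 in SM and SLC38A3 in AT post-treatment.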
